A study of Homo sapiens with 6 samples.

Results

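The adrenergic core transcription factors are the DNA-binding regulators that hold neuroblastoma cells in their noradrenergic, sympathoblast-like state. They were taken as a named set of 8 genes, PHOX2A, HAND1, HAND2, GATA2, GATA3, ISL1, TBX2 and INSM1, by matching the Ensembl identifiers of the authors' deposited table to symbols. Of these 8, 7 were measured among 13885 genes. INSM1, a zinc finger factor of neuroendocrine differentiation, was not analysed here.

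The cells were BE(2)-C, a human neuroblastoma line with amplified MYCN that becomes more neuron-like in all-trans retinoic acid (ATRA). Wild type for genotype by the labels, they received either an siRNA against PCIF1 (siPcif1, 3 samples) or a scrambled siRNA (siScram, 3 samples) for 24 h. All 6 samples were then held in 10 µM ATRA for 4 days, so no group shows the cells without ATRA or without transfection. PCIF1 methylates the cap-adjacent adenosine of mRNA to m6Am, and the comparison asks what its depletion does to transcript levels. A single siRNA sequence per group is described, and the labels do not say whether the 3 samples of a group were separate cultures, so p-values measure the spread between these samples.

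In sympathetic development, these factors act as a mutually reinforcing circuit. They bind enhancers of one another and of noradrenergic genes, a layout called a core regulatory circuit. PHOX2A is a paired-type homeodomain protein, HAND1 and HAND2 are basic helix-loop-helix proteins that pair with E proteins, GATA2 and GATA3 are zinc finger proteins that read the word GATA, ISL1 is a LIM-homeodomain protein and TBX2 is a T-box repressor.

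All values come from the authors' deposited table, a comparison by DESeq2 that gives each gene the mean of its normalised counts over all samples, a log2 fold change and its SE. Its means ran from 7.01 to 4.78e+06 with a median of 175, and the depth of each library is unknown. The direction, siPcif1 over siScram, was set from the sign of PCIF1, because the header does not state it. The name of the table puts siScram first, and read in that plain order every sign below would turn. PCIF1 itself was at -0.82 (SE 0.19) by the authors' deposited table, at an adjusted p from DESeq2 of 0.000167. Its sign is therefore no check of the siRNA. At a DESeq2 adjusted p of 0.05 in the authors' deposited table, 34% of all genes passed, 16.3% as higher and 17.7% as lower. Fold changes in the authors' deposited table appear to be shrunken towards 0, and estimates without shrinkage are given in the closing section.

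The annotated starts of the members are shown because PCIF1 acts on mRNAs that begin with adenosine. Of the measured members, 6 had a RefSeq promoter window (GRCh38.p14; 250 bases before the start and 50 from it), and TBX2 had none. Each line gives 24 bases before the RefSeq start nearest the main GENCODE transcript, 5′ to 3′ on the strand of the gene, with the first transcribed base in capitals:
PHOX2A: aggcgcgcgggccgggctggctgcA
HAND1: agccagatccgcaggggagtccgcA
HAND2: taacccgagcggccctaaagatgtA
GATA2: aaagccgcgttgcggccggtggggG
GATA3: ttgcgtcgcgccacagctgtctgcG
ISL1: gaagagaggtgcccgagccgcgccG
In these RefSeq windows PHOX2A (chr11:72244176-72244200, minus strand), HAND1 (chr5:154478227-154478251, minus strand) and HAND2 (chr4:173530229-173530253, minus strand) began with A. GATA2 (chr3:128493201-128493225, minus strand), GATA3 (chr10:8054664-8054688, plus strand) and ISL1 (chr5:51383424-51383448, plus strand) began with G. Over all 35116 RefSeq windows, 44.4% began with A and 33.6% with G. The main GENCODE transcript starts 37 bases from the RefSeq start for HAND1 and 57 bases from it for ISL1. Its first base there is G and A, so the first base of these 2 genes depends on the annotation. For GATA2 and GATA3 the main GENCODE transcript starts 16 and 122 bases from the RefSeq start, also with G. GATA2 has 2 RefSeq windows and GATA3 has 6, of which only the nearest is shown. Members with an annotated A start and members with a G start were both among those that passed the test. The start used in these cells was not measured.

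At a DESeq2 adjusted p of 0.05 in the authors' deposited table, 4 of the 7 measured members rose and 1 fell with siPcif1. Among all genes 16.3% were called higher and 17.7% lower. The median log2 fold change of the 7 was 0.56 by the authors' deposited table, against 0.01 over all genes; over the 6 with a mean of at least 100, which leaves out GATA3, it was 0.33. GATA2, HAND2, GATA3 and HAND1 rose, ISL1 fell, and PHOX2A and TBX2 did not pass. The set therefore did not move as a block. In bulk RNA, a change in the RNA of each cell and a change in the share of cells that make it cannot be told apart.

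**Figure D1:**
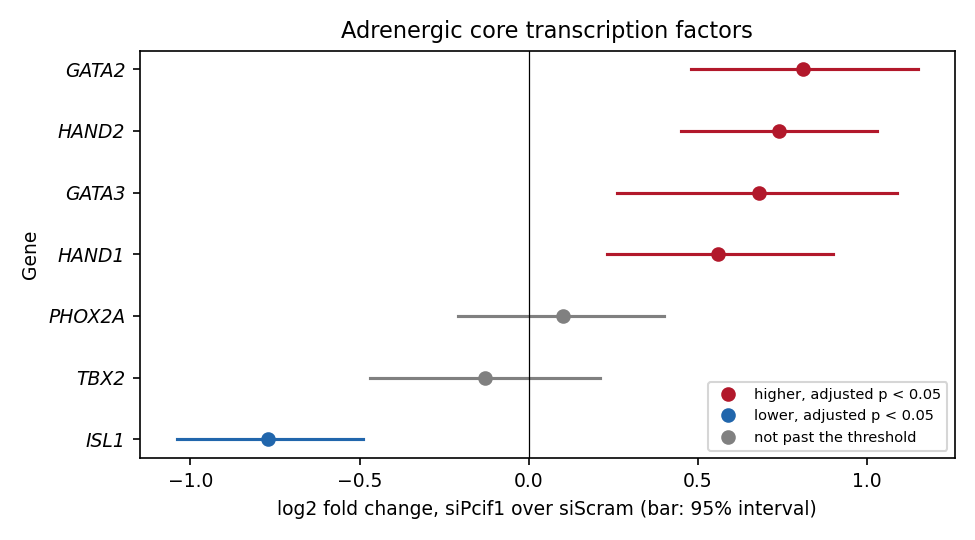
Log2 fold change (siPcif1 over siScram, x axis) of the 7 measured core factors in the authors' deposited table, with 95% intervals from the SE as bars. GATA2, HAND2, GATA3 and HAND1 lie between 0.56 and 0.81, PHOX2A and TBX2 have intervals that include 0, and ISL1 is at -0.77.

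GATA2 had the largest estimated increase of the members. Its 95% interval overlaps those of HAND2, GATA3 and HAND1, and the differences between them were not tested. GATA2 (ENSG00000179348.11; chromosome 3, 128479427 to 128493185, GRCh38) had a mean normalised count of 4310 by the authors' deposited table. With its fold change and equal group sizes, that mean implies 3124 with siScram and 5495 with siPcif1, computed from the authors' deposited table. Its log2 fold change, from the authors' deposited table, equalled 0.81 (SE 0.17, 95% interval 0.48 to 1.15; adjusted p = 1.83e-05 by DESeq2). GATA2 was thus at 175.9% of the siScram level in the authors' deposited table, with an interval of 139.9 to 221.2%. Were the direction of the authors' deposited table turned, it would be at 56.9% and have the largest estimated decrease.

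GATA3, the close relative of GATA2 that is also a master factor of T helper and breast luminal cells, rose by a similar factor from a far lower level. GATA3 (ENSG00000107485.16; chromosome 10, 8045378 to 8075203) had a mean of 73.2, which implies 56.3 with siScram and 90 with siPcif1 from the authors' deposited table. Its log2 fold change, from the authors' deposited table, equalled 0.68 (SE 0.21, 95% interval 0.26 to 1.09; adjusted p = 0.00658 by DESeq2). The intervals of GATA2 and GATA3 overlap over most of their length. Per kb of the main transcript, GATA2 was measured at 1280 and GATA3 at 27.6 normalised counts, a ratio of 46.4 by the authors' deposited table. GATA4, also of the GATA family, stood between them at 65.6 per kb by the authors' deposited table.

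HAND2, required for noradrenergic differentiation of sympathetic neurons, rose as well. HAND2 (ENSG00000164107.8; chromosome 4, 173524969 to 173530229) had a mean of 2554, which implies 1912 with siScram and 3195 with siPcif1 from the authors' deposited table. Its log2 fold change, from the authors' deposited table, equalled 0.74 (SE 0.15, 95% interval 0.45 to 1.03; adjusted p = 6.31e-06 by DESeq2). HAND1, its paralog, had a mean of 583, which implies 471 and 695 by the authors' deposited table (ENSG00000113196.2; chromosome 5, 154474972 to 154478264). HAND1 was at 0.56 by the authors' deposited table (SE 0.17, 95% interval 0.23 to 0.90; adjusted p = 0.00536 by DESeq2). Per kb, HAND2 stood 2.74 times above HAND1 by the authors' deposited table.

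ISL1, a factor of sympathetic and motor neuron differentiation, was the member that fell. ISL1 (ENSG00000016082.14; chromosome 5, 51383391 to 51394738) had a mean of 755, which implies 951 with siScram and 559 with siPcif1 from the authors' deposited table. Its level with siPcif1 was 58.8% of that with siScram, with a 95% interval of 48.5 to 71.2% from the SE of the authors' deposited table. On the log2 scale that is -0.77 (SE 0.14; adjusted p = 1.12e-06 by DESeq2) by the authors' deposited table. Were the direction of the authors' deposited table turned, ISL1 would be at 170.1% and the member that rose. The interval of ISL1 on the log2 scale, -1.04 to -0.49, does not overlap that of any other member in the authors' deposited table.

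PHOX2A and TBX2 did not pass the test as deposited, and both intervals include 0. These intervals hold for the deposited values alone. Without the trend over GC content, length and expression described further on, PHOX2A was at 0.57, outside its own interval. PHOX2A, which drives noradrenergic genes such as DBH, had the highest level of the set, with a mean of 4718 and 2777 per kb in the authors' deposited table (ENSG00000165462.5; chromosome 11, 72239077 to 72245664). Its log2 fold change, from the authors' deposited table, equalled 0.10 (SE 0.16; adjusted p = 0.669 by DESeq2), with a 95% interval of 86.6 to 132.2% of the siScram level. TBX2 (ENSG00000121068.13; chromosome 17, 61399896 to 61409466) had a mean of 1249 and was at -0.13 (SE 0.17; adjusted p = 0.591 by DESeq2) by the authors' deposited table. The interval of TBX2 ran from 72.0 to 115.3% of the siScram level in the authors' deposited table.

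Per kb of the main transcript, the members spanned a wide range of levels. PHOX2A was followed by GATA2 at 1280, HAND2 at 919, TBX2 at 374, HAND1 at 335, ISL1 at 307 and GATA3 at 27.6 by the authors' deposited table. PHOX2A was 101 times above GATA3 on that scale. TBX2, HAND1 and ISL1 lay close together, and the authors' deposited table gives no spread of a level over samples by which to order them. In the levels implied per group, HAND1 was below ISL1 with siScram and above it with siPcif1, since the fold changes went opposite ways.

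**Figure D2:**
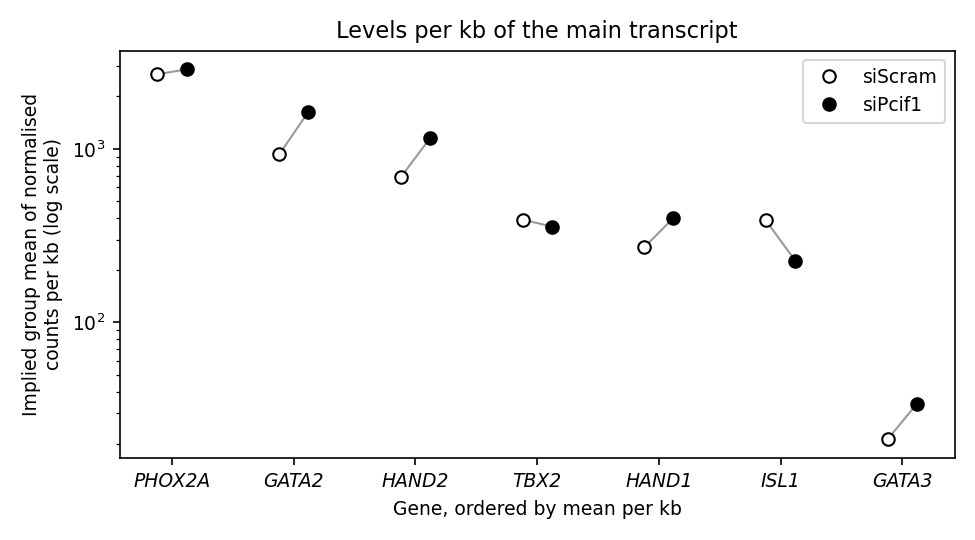
Group means of normalised counts per kb of the main transcript (log scale, y axis) for each core factor, implied by the mean and fold change of the authors' deposited table; open points are siScram and filled points siPcif1. The points of GATA2, HAND2, HAND1 and GATA3 go up, that of ISL1 goes down, and HAND1 and ISL1 change places.

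Transcripts that run opposite to a member were compared with it, since HAND2, GATA2, GATA3, TBX2 and ISL1 each have a measured antisense or divergent partner. HAND2-AS1, which starts inside HAND2, crosses its start and runs on (ENSG00000237125.9; chromosome 4, 173527270 to 173659696), had a mean of 2814 by the authors' deposited table. It rose too, at 0.71 (SE 0.13; adjusted p = 6.05e-07 by DESeq2) by the authors' deposited table, beside 0.74 for HAND2. Without the trend over GC content, length and expression described further on, HAND2 was at 1.07 and HAND2-AS1 at 0.65. These values were computed from the authors' deposited table, and the difference between them was not tested. HAND2 and HAND2-AS1 share 867 exonic bases, 24.1% of the exonic bases of HAND2. The libraries were made with a stranded kit, but no source used here gives the strand setting of the counting, so reads in the shared bases cannot be assigned to either gene. ISL1-DT, the divergent transcript upstream of ISL1 (ENSG00000259663.2; chromosome 5, 51372736 to 51383332), fell with ISL1. It was at -0.46 (SE 0.19, adjusted p = 0.0449 by DESeq2) by the authors' deposited table, and its annotated gene does not overlap that of ISL1. Without the trend over GC content, length and expression, ISL1-DT was at -0.30 (adjusted p = 0.245 from the DESeq2 values) and did not pass.

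The other partners did not pass as deposited. GATA3-AS1 was at 0.56 (SE 0.26; adjusted p = 0.0779 by DESeq2) and GATA2-AS1 at 0.21 (SE 0.17; adjusted p = 0.359 by DESeq2) by the authors' deposited table. TBX2-AS1 was at 0.12 (SE 0.18, adjusted p = 0.634 by DESeq2) by the authors' deposited table. Without the trend over GC content, length and expression, GATA3-AS1, GATA2-AS1 and TBX2-AS1 passed as higher, at 0.86, 0.49 and 0.49. Their adjusted p was then 0.00623, 0.0238 and 0.0298 from the DESeq2 values. GATA2, GATA3 and TBX2 share 0 exonic bases with these antisense transcripts. PHOX2A shares 29 exonic bases, 1.6% of its own, with INPPL1 on the opposite strand.

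**Figure D3:**
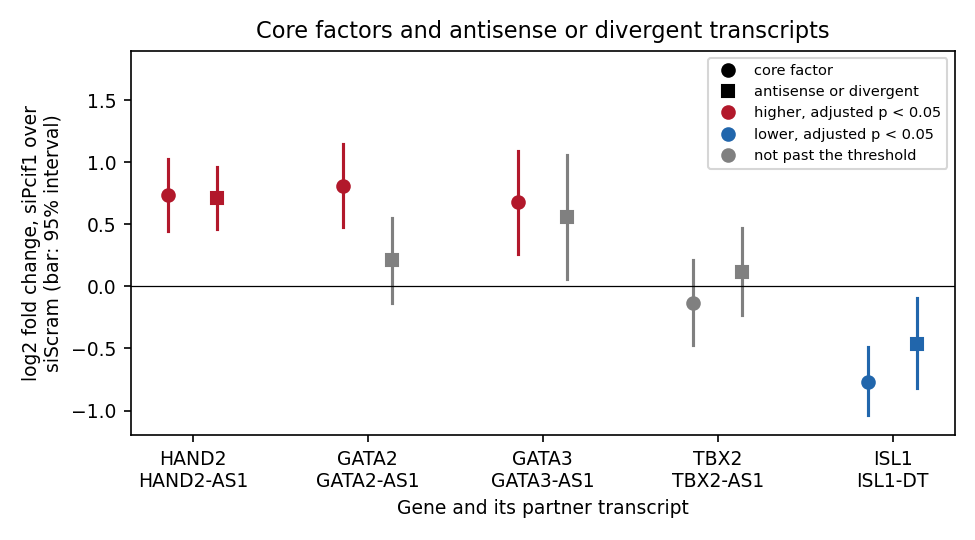
Log2 fold change (siPcif1 over siScram, y axis) of 5 core factors (circles) and their antisense or divergent transcripts (squares) by the authors' deposited table, with 95% intervals from the SE. HAND2 and HAND2-AS1 are at 0.74 and 0.71 as deposited. Without the trend over GC content, length and expression they are at 1.07 and 0.65, not drawn. ISL1 and ISL1-DT are both below 0, and ISL1-DT did not pass without that trend. GATA2-AS1, GATA3-AS1 and TBX2-AS1 did not pass the test as deposited and passed as higher without the trend.

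Short words that these factor families bind were looked for in the 300-base windows of the 6 members with one. The words were AGATAA for GATA proteins with TGATAA as its second form, CAGATG for basic helix-loop-helix pairs, TAATTA for homeodomains, AGGTGTGA for T-box proteins and AGGTCA for nuclear receptors such as the retinoic acid receptors, each on both strands. A GATA word was present in 2 of the 6 windows, those of HAND2 and ISL1, which changed in opposite directions, and in 16.3% of all RefSeq windows. The sequences are shown with the word in capitals, 5′ to 3′ on the strand of the gene:
HAND2 distal: tcctctgacTGATAAaaaaagttt
HAND2 proximal: aagttttaaTTATCTtatggttat
ISL1 distal: gctgaaataTGATAAtcagaacag
ISL1 proximal: ttgagtaagAGATAAggaagagag
The HAND2 words begin 222 and 172 bases before the RefSeq start (chr4:173530437-173530460 and chr4:173530387-173530410, GRCh38.p14, minus strand), and the proximal one reads AGATAA on the other strand. That proximal word overlaps the TAATTA of the same window, a word found in 4.8% of all windows. The ISL1 words begin 156 and 31 bases before its RefSeq start (chr5:51383283-51383306 and chr5:51383408-51383431, plus strand). The window of GATA2 held AGGTCA, found in 13.8% of all windows, and the windows of PHOX2A, HAND1 and GATA3 held none of the words. GATA2 has 2 RefSeq windows and GATA3 has 6, and only the nearest to the main GENCODE start was searched. A match is a description of these letters and not a binding site.

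Among 19 measured other regulators of the adrenergic state, 6 were higher and 0 lower, in the authors' deposited table, by DESeq2's adjusted p, with a median log2 fold change of 0.34 against 0.01 over all genes. The shares over all genes were 16.3% higher and 17.7% lower. CCND1, the G1 cyclin expressed at high levels in this state, was at 1.14 (SE 0.14; adjusted p = 7.42e-15 by DESeq2) by the authors' deposited table. MYCN, the amplified oncogene of the line, was at 1.09 (SE 0.16) and MEIS1, a TALE homeodomain cofactor, at 0.82 (SE 0.14) by the authors' deposited table. LMO3, a LIM-only adaptor, was at 1.19 (SE 0.28) from a mean of 22.8 by the authors' deposited table. TBX3, the close paralog of TBX2, rose by 0.61 (SE 0.15; adjusted p = 0.000321 by DESeq2) by the authors' deposited table, whereas TBX2 did not pass; the difference between them was not tested. SATB1, a chromatin organiser, was the remaining increase, at 0.50 (SE 0.18, adjusted p = 0.022 by DESeq2) by the authors' deposited table. Its call was lost without the trend over GC content, length and expression (0.25, adjusted p = 0.342 from the DESeq2 values). Of the members of this list that did not pass, SOX4 and KLF7 had the highest means and were at -0.17 and 0.07 by the authors' deposited table. The AP-2 factor TFAP2B did not pass, at 0.65 (SE 0.28; adjusted p = 0.0549 by DESeq2) by the authors' deposited table; it is named for its place in the circuit after its value was seen.

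Paralogs of the members were measured for 5 of 13 listed genes, and TBX3 was the one that passed, as higher. Over all genes 16.3% were called higher and 17.7% lower by DESeq2's adjusted p, so this count says little about the paralogs. GATA4 was at 0.37 (SE 0.18; adjusted p = 0.105 by DESeq2) from a mean of 224 by the authors' deposited table. INSM2, the relative of INSM1, was at 0.0034 (SE 0.14) and did not pass in the authors' deposited table.

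Of 16 measured binding partners of the members, 3 were higher and 2 lower in the authors' deposited table by DESeq2's adjusted p, near the 16.3% and 17.7% of all genes, with a median of 0.08. LMO4, a LIM-only protein that competes with LIM-homeodomain factors such as ISL1 for the adaptor LDB1, had the largest change of the list. It was at -1.92 (SE 0.17; adjusted p = 8.04e-26 by DESeq2) by the authors' deposited table, from a mean of 162. LDB1 itself was at -0.0046 (SE 0.15; adjusted p = 0.985 by DESeq2) by the authors' deposited table. LDB2, the second LIM-domain-binding adaptor, was at 0.95 (SE 0.22), and the histone deacetylase HDAC2 at 0.62 (SE 0.18) by the authors' deposited table. LYL1 fell by 0.49 by the authors' deposited table. HDAC2 and LYL1 lost their calls without the trend over GC content, length and expression, at 0.28 and -0.13. Their adjusted p was then 0.276 and 0.673 from the DESeq2 values. The E proteins that pair with HAND1 and HAND2 did not pass: TCF3, TCF4 and TCF12 were at -0.07, 0.07 and 0.09 by the authors' deposited table. LDB1, TCF3 and TCF12 are named for their roles, after their values were seen. KDM1A, a demethylase of corepressor complexes and with TCF4 the most abundant of the partners that did not pass, was at 0.17 (SE 0.14) by the authors' deposited table.

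Among noradrenergic and neuroendocrine genes, many of them targets of the circuit, most of those that passed were higher. Of 22 measured, 10 were higher and 1 lower, in the authors' deposited table, by DESeq2's adjusted p, against 16.3% and 17.7% of all genes, with a median of 0.27. PNMT, which converts noradrenaline to adrenaline, was at 1.58 (SE 0.22) from a mean of 78.6 by the authors' deposited table. CHGB, a secretory granule protein, was at 0.89 (SE 0.16) and DLK1, a Notch-like surface protein of chromaffin cells, at 0.58 (SE 0.15) by the authors' deposited table. ALK, the receptor kinase, was the member that fell, at -0.39 (SE 0.16; adjusted p = 0.0409 by DESeq2) by the authors' deposited table.

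The enzymes of noradrenaline synthesis were not among the genes that passed. TH was at 0.0011 (SE 0.15), DDC at -0.0035 (SE 0.13) and DBH at -0.16 (SE 0.17) by the authors' deposited table, and were named for their role after their values were seen. The noradrenaline transporter SLC6A2 passed narrowly as deposited and was likewise chosen for its role afterwards. It was at 0.35 (SE 0.14, adjusted p = 0.0478 by DESeq2) by the authors' deposited table. Without the trend over GC content, length and expression, SLC6A2 was at 0.59 (adjusted p = 0.00044 from the DESeq2 values). TH, DDC and DBH were then at 0.36, 0.18 and 0.17 and again did not pass. STMN2 and SCG2 had the highest means of the genes that did not pass, at -0.13 and 0.19 by the authors' deposited table. TH, DDC and DBH, and the secretory granule genes CHGB and SCG2, had means from 637 to 8046 by the authors' deposited table. These markers, picked from the list, were thus present. SLC18A2 and PCSK1, of the 24 listed genes, were not measured.

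Regulators of the opposing mesenchymal state had a median of 0.04, which was -0.51 over the 10 with a mean of at least 100, by the authors' deposited table. Of 18 measured, 6 were lower and 3 higher, in the authors' deposited table, by DESeq2's adjusted p, where 17.7% and 16.3% of all genes were. IRF1, an interferon response factor, was at -1.36 (SE 0.18), and the AP-1 genes FOSL2 and JUN at -0.97 (SE 0.17) and -0.81 (SE 0.15) by the authors' deposited table. ZNF217 rose, at 0.88 (SE 0.18) by the authors' deposited table. CBFB and TWIST1 had the highest means of those that did not pass, at 0.29 and 0.14 by the authors' deposited table. Of the 30 genes listed, 12 were not measured.

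**Figure D4:**
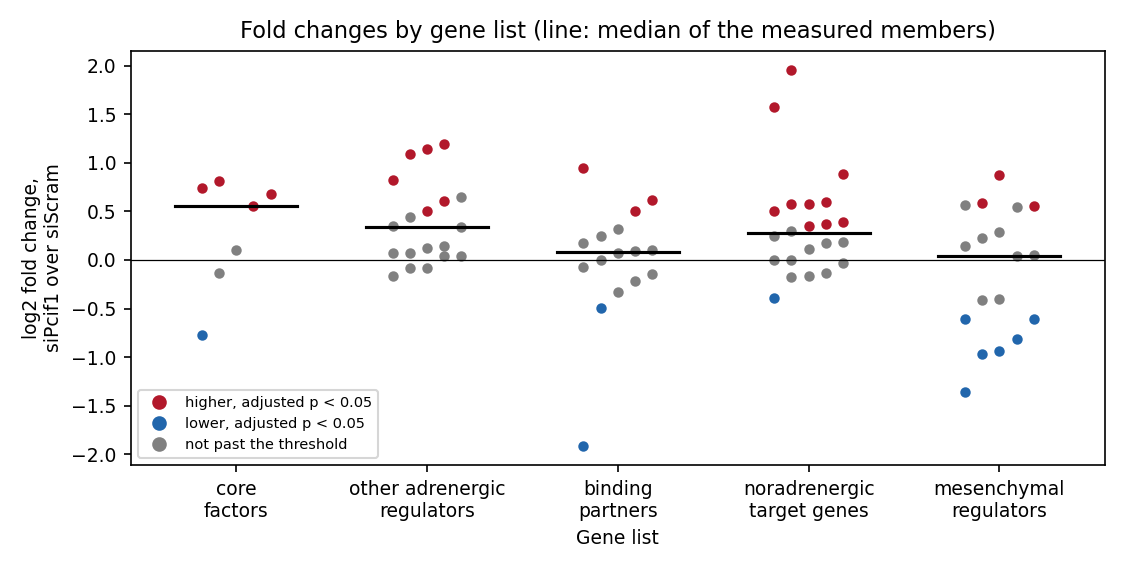
Log2 fold change (siPcif1 over siScram, y axis) of each measured gene in 5 lists in the authors' deposited table, coloured by a DESeq2 adjusted p of 0.05, with the median of each list as a line. The medians are 0.56 for the core factors, 0.34, 0.08 and 0.27 for other adrenergic regulators, binding partners and noradrenergic genes, and 0.04 for mesenchymal regulators.

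Markers of other cell types moved too. Of 8 measured fibroblast and matrix markers, 4 were lower and 0 higher, in the authors' deposited table, by DESeq2's adjusted p, where 17.7% and 16.3% of all genes were, with VIM at -1.54, COL6A2 at -1.34, FN1 at -1.10 and PDGFRB at -0.94. Their summed level implied by the authors' deposited table was 5818 with siScram and 2280 with siPcif1, most of it VIM, which neuroblastoma cells also express. Among Schwann and glial markers, of which 3 were measured, S100B rose by 1.21 (SE 0.22) by the authors' deposited table, and SOX10 was not measured. Of 12 immune, epithelial, endothelial and blood markers 3 were measured, with means up to 40.7 by the authors' deposited table, and 0 of them passed. The part of other cells in the changes of the core factors was not tested.

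Fold changes in the authors' deposited table followed the base composition of transcripts, and most members lie in the part of that range where other genes were lower. Across the 13877 genes with an annotated transcript, Spearman's correlation of GC content with log2 fold change was -0.42, a description across genes, which are not replicates. In the bin of 58.4 to 62.0% GC, which holds HAND2 and GATA2, the median of all genes was -0.21 and the upper quartile 0.06 by the authors' deposited table. In the bin of 43.6 to 46.2%, which holds ISL1 at 45.6%, the median was 0.11 and the lower quartile -0.16 by the authors' deposited table. All 4 members that rose lay above the upper quartile of their bin, and ISL1 lay below the lower quartile of its own. PHOX2A, which did not pass, was at 0.10 and so also above the upper quartile of its bin, -0.01 by the authors' deposited table.

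With the trend over GC content, length and expression removed, 5 members were higher and 1 lower, where 12.2% and 12.8% of all genes were. GATA2 was then at 1.17, HAND2 at 1.07, HAND1 at 0.84, GATA3 at 0.82 and ISL1 at -0.74, computed from the authors' deposited table. PHOX2A, at 66.5% GC, was at 0.57 with an adjusted p of 0.00217 from the DESeq2 values, and so passed there and not as deposited. TBX2, at 66.6% GC, was at 0.21 with an adjusted p of 0.426 from the DESeq2 values. HAND2-AS1, GATA2-AS1, GATA3-AS1 and TBX2-AS1 passed as higher, at 0.65, 0.49, 0.86 and 0.49 by the authors' deposited table without the trend, and ISL1-DT, at -0.30, did not. Of the other adrenergic regulators 5 rose and 0 fell on that footing (median 0.18), of the noradrenergic genes 12 rose and 0 fell (0.48), of the binding partners 1 rose and 2 fell (0.15), and of the mesenchymal regulators 3 rose and 4 fell (-0.08). ALK lost its call, at -0.39 with an adjusted p of 0.0525 from the DESeq2 values, and GATA4 passed, at 0.59 with one of 0.00813. The source of the trend was not tested.

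The calls of the members also rest on how wide the spread under no change is taken to be. The robust SD of the Wald statistics in the authors' deposited table was 2.44. Divided by it, 0.151% of all genes passed as higher and 0.821% as lower, and 0 of the 7 members passed, with ISL1 at the smallest adjusted p, 0.511 from the DESeq2 statistics. Real changes widen that SD as well. Against an absolute log2 change of 0.3, which 4.95% of all genes passed as higher and 6.04% as lower, GATA2, HAND2 and ISL1 passed and HAND1 and GATA3 did not, with adjusted p of 0.295 and 0.2 from the DESeq2 values.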

How the data were processed

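RNA of 6 BE(2)-C samples, 3 with siScram and 3 with siPcif1, was made into poly(A)-selected stranded Illumina libraries, per the labels' protocols. Per the submitters' processing notes, the tools included STAR 2.7.10a, cutadapt 3.7, bcl2fastq 2.20, DESeq2, HTSeq and deepTools, on hg38, with no roles or settings. The table of 13885 genes holds no values per sample. Its mean normalised count is a signal deposited by the authors, over all samples. The authors deposited the log2 fold change and its SE as log2 values. The Wald statistic deposited by the authors is a score. The p-values were deposited by the authors, and a Benjamini-Hochberg adjustment over the listed genes returned their adjusted p-values. The depth of each library is unknown; the SE, which gives the precision, ran from 0.12 to 0.295 with a median of 0.18.

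Identifiers were matched without version to GENCODE 29 (GRCh38), 13877 of 13885. The main transcript was ranked by APPRIS, basic tag, support level and length. Group levels were derived from the mean and the fold change for groups of equal size, and 95% intervals from the SE. Promoter windows are from RefSeq (GRCh38.p14). The trend was a least-squares fit of the fold change on cubic terms of GC content, transcript length, gene length and mean. The software was Python 3.11.15 with pandas 2.3.3, numpy 2.4.6, matplotlib 3.10.9 and scipy 1.17.1, and the steps were tested on simulated data.

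The members, lists and tests were chosen with earlier results of these data known. Named genes were all members, the siRNA target, measured antisense transcripts and, per list, up to 4 genes by smallest adjusted p and the 2 most abundant that did not pass, plus genes said to be chosen later. Some genes that the rule would name are not reported here. Alternatives were other thresholds, centring, a minimum mean of 100, the trend removed, no shrinkage, a test against an absolute log2 change of 0.3 and a rescaled statistic.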

Additional observations from a re-analysis of the deposited data

How the results depend on the processing

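No paired analysis was possible because the authors' deposited table holds no values per sample, so no sample could be left out either. At adjusted p thresholds of 0.01 and 0.1 and after centring, 4 members were higher and 1 lower, as deposited (22.9, 41.2 and 33.9% of all genes called); with a minimum mean of 100, which drops GATA3, 3 and 1 (41.7%). Against an absolute log2 change of 0.3, 2 members were higher, GATA2 and HAND2, and ISL1 lower; HAND1 at 0.56 and GATA3 at 0.68 had adjusted p of 0.295 and 0.2 from the DESeq2 values. With the Wald statistic divided by its robust SD, 0 were higher and 0 lower: HAND1 (0.56), HAND2 (0.74), GATA2 (0.81), GATA3 (0.68) and ISL1 (-0.77) had adjusted p of 0.897, 0.582, 0.635, 0.907 and 0.511, and PCIF1 0.744, from the DESeq2 statistics; the division itself lowers every statistic. With the trend removed, PHOX2A was at 0.57 and passed, TBX2 turned to 0.21 without passing, and PCIF1 was at -0.58 with an adjusted p of 0.0139 from the DESeq2 values; the cause was not tested. Estimated without shrinkage under a normal prior, GATA2 was at 0.89, HAND2 and GATA3 at 0.79, HAND1 at 0.62 and ISL1 at -0.82. These were computed from the authors' deposited table with an assumed prior SD of 0.59, the smallest that its largest SE allows. A wider prior would give values nearer the deposited ones, and the header states no shrinkage.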

Other observations

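Leaving out the antisense and divergent transcripts, 24 genes within 250 kb of the measured members were measured. Of these, 2 were called higher and 7 lower by the DESeq2 adjusted p of the authors' deposited table, where 16.3% and 17.7% of all genes were. On the side of HAND2 away from HAND2-AS1, SCRG1 was at -1.91 (SE 0.24; adjusted p = 5.75e-13 by DESeq2) in the authors' deposited table, while HAND2 and HAND2-AS1 rose. HMGB2, a chromatin protein of dividing cells in the same window, was at -0.49 (SE 0.14; adjusted p = 0.00292 by DESeq2) in the authors' deposited table. RPN1, a subunit of the oligosaccharyltransferase complex next to GATA2, was at -1.14 (SE 0.15; adjusted p = 6.55e-13 by DESeq2) in the authors' deposited table. Near PHOX2A, the mitochondrial disaggregase CLPB was at 0.76 (SE 0.14; adjusted p = 2.41e-06 by DESeq2) in the authors' deposited table, while PHOX2A did not pass. The genes named here were chosen after their values were seen, and the window was set after the data were examined.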
